A study of Mus musculus with 15 samples.

Results

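The genes described here encode subunits of the mTOR kinase complexes and the TSC proteins that restrain them: Mtor, Rptor, Rictor, Mlst8, Mapkap1, Prr5, Prr5l, Akt1s1, Tsc1 and Tsc2. They are 10 of the 28785 genes with a count, and all 10 had counts in each of the 15 oocytes. The family was chosen by the level of Prr5, which was among the genes highest in MII relative to GV, so the difference in Prr5 is a description of the value behind the choice and is no test. Single mouse oocytes were sequenced by MATQ-seq, which primes along total RNA and amplifies the cDNA. The 9 GV oocytes are fully grown oocytes arrested in meiotic prophase, taken from female mice of 6 to 8 weeks, 44 h after a dose of 7 IU PMSG (a follicle-stimulating gonadotropin). The 6 MII oocytes are ovulated eggs held at the metaphase of meiosis II. Their donors received 7 IU of PMSG and about 48 h later 7 IU of hCG, which triggers ovulation. The oviducts were opened 20 h after that, and hyaluronidase at 300 IU/mL removed the cumulus cells. The labels give no strain, genotype or mouse, and state the age for the GV collection only.

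mTOR is a protein kinase that sits in a pair of complexes. mTORC1, with the scaffold raptor, senses amino acids and growth factors at the lysosome and promotes translation, while mTORC2, with the scaffold rictor, phosphorylates AKT, SGK and protein kinase C and acts on the actin cytoskeleton. The TSC1-TSC2 complex switches off the small GTPase RHEB, the activator of mTORC1. Fully grown oocytes make little new RNA, live on stored mRNA and degrade much of it during maturation, and mTOR signalling is known there for control of the translation of stored mRNAs and for spindle function.

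Each oocyte is a cell with no mouse named, so a stage counts as 1 sample and nothing was tested. Total counts were 3687610 to 7103063 in GV and 808641 to 2348281 in MII oocytes. A single unnamed feature took 15.7% to 61.2% of the counts of an MII oocyte and 3.43% to 11.2% in GV7 to GV9. GV1 to GV6 held 0 counts of it, which allows at most 7.04e-05% in the shallowest of these. GV1 to GV6 and GV7 to GV9 also differ in the kind of column header of their files, and the MII files carry another header, so the effects of stage and of file set cannot be told apart. Levels are given in CPM, a gene's counts scaled to a common total per oocyte. Stages are compared by the log2 ratio of summed counts, MII over GV, minus that of the median measured gene. This median gene stood at −0.98 in CPM, at −0.31 when the unnamed feature was left out of the totals, at −0.063 after median-of-ratios scaling and at −0.11 after TMM. The number after ± beside a ratio combines the SDs of the 9 GV and of the 6 MII oocytes; it is a spread and not an error of a mean. All 10 oocyte markers had counts in both stages, and their summed level was 6540 to 26662 CPM in GV and 4741 to 6737 CPM in MII. The 12 cumulus and granulosa markers summed to 101 to 335 CPM in GV and 14.0 to 81.5 CPM in MII, where 6 of them, Foxl2, Amh and Inha included, were at 0 (Nr5a2, the most abundant, was at 83.8 and 31.3 CPM). Cyp19a1, another of these markers, hardly changed in CPM (17.1 for the GV sum, 15.6 for the MII sum). Its ratio to the median gene was 0.85 ± 1.66, within the spread. The part of these markers in the values below was not tested.

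Prr5 was the member with the largest difference between stages. PRR5, also called protor-1, binds rictor and is an accessory subunit of mTORC2; its paralog PRR5L (protor-2) occupies the same kind of place in the complex. The pair matters for reading the counts, because reads shared by close copies could be split between them. The stretch of 60 coding bases in which the paralogs are most alike is shown here, 5′ to 3′ on the coding strand, with the bases that differ in capitals. It covers bases 382 to 441 of the 1161 coding bases of Prr5 (chromosome 15, plus strand) and 409 to 468 of the 1110 coding bases of Prr5l (chromosome 2, minus strand), numbered from the start codon, in GENCODE M21 on GRCm38.
Prr5: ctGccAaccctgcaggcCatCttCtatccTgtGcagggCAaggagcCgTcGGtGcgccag
Prr5l: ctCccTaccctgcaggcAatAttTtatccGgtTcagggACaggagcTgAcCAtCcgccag
Even there 14 of 60 bases differ (76.7% identical). The longest run of bases that annotated transcripts of Prr5 and Prr5l have in common was 12, and over all 45 pairs of the 10 genes it was 11 to 36 (36 between Prr5 and Rictor). Of the 50-base words in Prr5 transcripts, 1.23% also occur in a transcript of another gene.

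Prr5 mRNA (ENSMUSG00000036106, 1.92 kb of annotated exon) stood at 97.8, 37.5, 82.1, 89.7, 114, 89.1, 56.3, 61.9 and 34.7 CPM in GV1 to GV9. In MII1 to MII6 it stood at 241, 239, 302, 387, 289 and 309 CPM. Every MII oocyte was thus above every GV oocyte, with a gap between 114 and 239 CPM. Over the 9 GV oocytes the mean was 73.7 ± 27.5 CPM (SD, n = 9), and over the 6 MII oocytes 295 ± 54.3 CPM (SD, n = 6). The 3394 counts summed over GV oocytes gave 77.3 CPM (74.7 to 80.0, exact Poisson 95% interval). The 2924 counts summed over MII oocytes gave 304 CPM (293 to 315), which is 3.93-fold higher. Relative to the median gene the ratio was 2.96 ± 0.82, or 7.76-fold, rank 54 from the top among 10090 measured genes (at least 5 CPM in the higher stage), of which 1.96% were at least 4-fold higher. The CPM range of MII lay wholly above that of GV in 0.0892% of measured genes, and the range of levels relative to the median gene did so in 1.61%; since the choice of the group used this contrast, these shares only place the gene. With GV1 to GV6 as the only GV oocytes the ratio was 2.80, and with GV7 to GV9 it was 3.42.

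**Figure D1:**
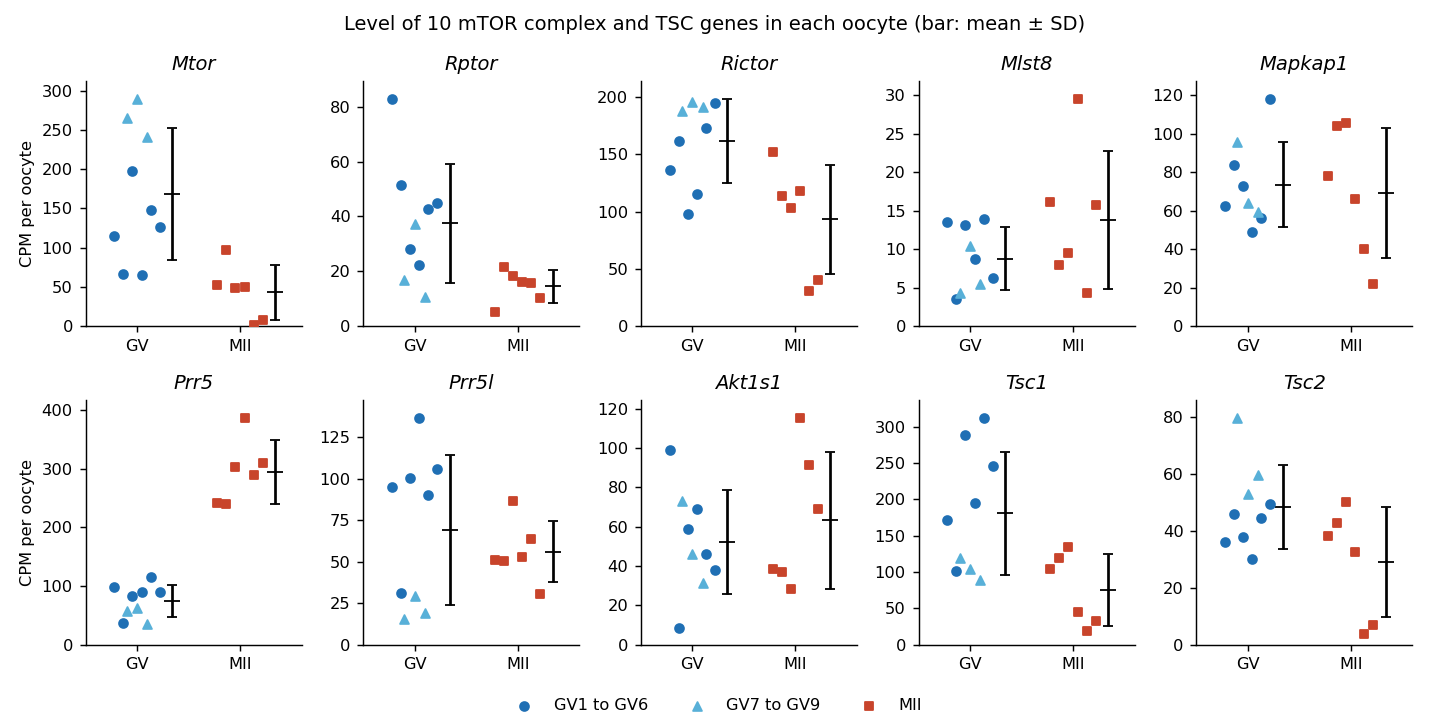
Level of each of the 10 genes in CPM per oocyte, with GV1 to GV6 as circles, GV7 to GV9 as triangles and MII oocytes as squares; the bar beside each stage is the mean ± SD over its oocytes. Only for Prr5 do the stages not overlap (34.7 to 114 CPM in GV, 239 to 387 CPM in MII), and for Mtor, Prr5l and Tsc2 the 2 sets of GV files lie apart.

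The make-up of the counts within an oocyte does not depend on how libraries are scaled, but it can depend on how a library represents long and short mRNAs. Prr5 held 4.69% to 11.5% (median 8.40%) of the counts of the 10 genes in a GV oocyte and 28.7% to 56.8% (median 38.2%) in an MII oocyte. The highest GV share was in GV4 and the highest MII shares in MII5 and MII6. In these libraries the levels of long and short genes differed least, as described below. In MII1 to MII4 the share was 28.7% to 42.4%. In GV oocytes the largest holder was Tsc1, Rictor or Mtor, and in all 6 MII oocytes it was Prr5. Prr5 counts were 0.182 to 0.839 times those of Rictor in the 9 GV oocytes and 1.58 to 9.27 times in the 6 MII oocytes. Against the sum of the other 9 genes the log2 ratio of Prr5 averaged −3.53 ± 0.48 in GV (SD, n = 9) and −0.56 ± 0.70 in MII (SD, n = 6). From summed counts the stages differed by 2.89. The 9 genes together were at 553 to 930 CPM in GV and 235 to 594 CPM in MII, whereas all 10 were at 590 to 1042 CPM in GV and 545 to 913 CPM in MII.

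**Figure D2:**
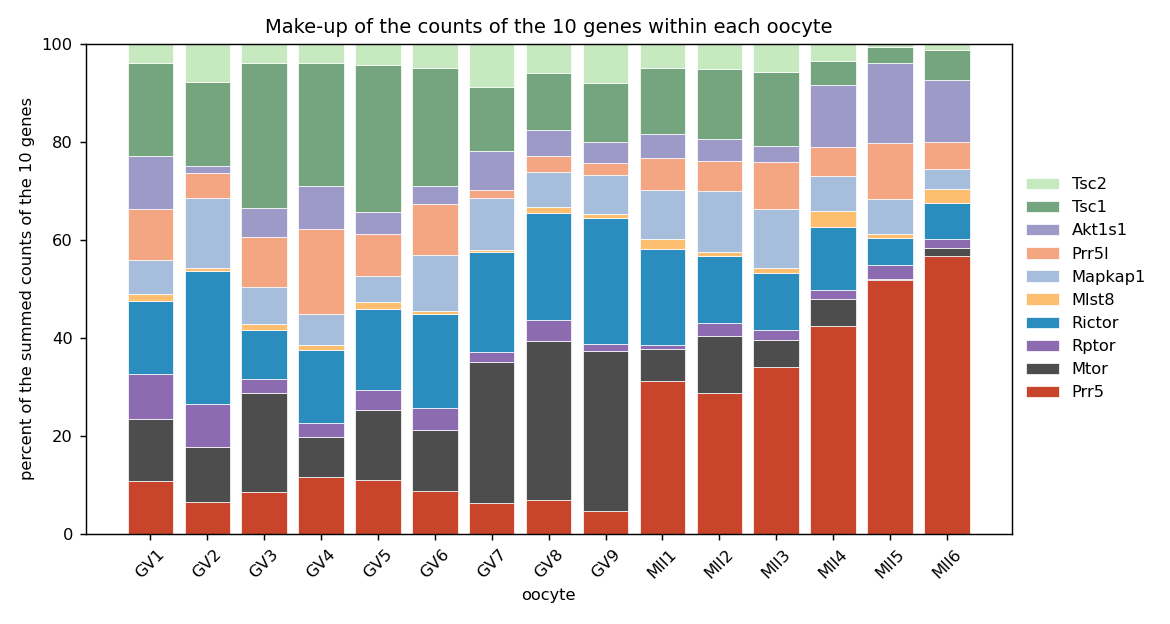
Share of each gene in the summed counts of the 10 genes, in percent, for each of the 15 oocytes (longer mRNAs give more counts, so segments do not compare genes, and the balance of long and short mRNAs differs between libraries). Prr5, the lowest segment, takes 4.69% to 11.5% in GV and 28.7% to 56.8% in MII oocytes; Mtor takes 29.0% to 32.6% in GV7 to GV9 and 0.217% in MII5.

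The paralog Prr5l showed no such gap. It (ENSMUSG00000032841) was at 15.1 to 137 CPM in GV (median 90.1) and 30.7 to 86.6 CPM in MII (median 51.8), and the MII range lay inside the GV range. Its level in GV depended on the file set: 31.2 to 137 CPM in GV1 to GV6 and 15.1 to 29.0 CPM in GV7 to GV9. The ratio of 0.49 ± 1.21 was accordingly 0.16 against the first set and 2.23 against the second, and −0.49 in CPM. Counts of Prr5 over those of Prr5l were 0.656 to 3.71 in GV oocytes (1.03 from summed counts) and at least 3.48 in MII oocytes (5.66). This ratio was 0.656 to 1.27 in GV1 to GV6 and 1.85 to 3.71 in GV7 to GV9. MII3, at 3.48, lay below GV7, at 3.71, so the stages overlapped by these oocytes.

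Rictor and Mapkap1, subunits found in mTORC2 alone, differed less between stages than Prr5. The ratio of Rictor was below the spread between oocytes and that of Mapkap1 was close to it. Rictor (ENSMUSG00000050310), the scaffold of mTORC2, was at 97.8 to 196 CPM in GV (median 173) and 30.9 to 152 CPM in MII (median 109). Its ratio was 0.09 ± 0.70, with the lowest levels in MII5 and MII6 (30.9 and 40.5 CPM) and the other 4 MII oocytes at 103 to 152 CPM, inside the GV range. Mapkap1 (ENSMUSG00000038696) encodes SIN1, which recruits substrates to mTORC2. It was at 48.7 to 118 CPM in GV (median 64.0) and 21.7 to 106 CPM in MII (median 72.1), a ratio of 0.78 ± 0.72. After TMM scaling the ratio was 0.67 and against GV7 to GV9 it was 0.63, each below that spread. The direction for Rictor and Mapkap1 depends on the scaling: in CPM the ratios were −0.89 for Rictor and −0.20 for Mapkap1, and Rictor was at −0.33 against GV7 to GV9.

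Mtor and Mlst8, the kinase and a subunit shared by both complexes, stood on opposite sides of the median gene. Mtor (ENSMUSG00000028991) was at 64.5 to 289 CPM in GV (median 149) and 1.21 to 97.3 CPM in MII (median 49.5). Of the 6 MII oocytes 5 lay below the lowest GV oocyte in CPM, and MII2 lay within the GV range. Relative to the median gene only 2 of the 6, MII5 and MII6, lay below the lowest GV oocyte. The ratio was −1.09 ± 1.90, smaller than the spread, and −0.68 without MII5 and MII6, which had 2 and 19 Mtor counts. GV7 to GV9 held Mtor at 241 to 289 CPM, above all of GV1 to GV6 (64.5 to 198 CPM), and the ratio was −0.71 relative to the first set and −1.91 relative to the second. Mlst8 (ENSMUSG00000024142), a propeller protein that steadies the kinase domain, was the least abundant member, at 3.52 to 13.9 CPM in GV (median 8.72) and 4.25 to 29.5 CPM in MII (median 12.6). It had 408 counts in GV and 139 in MII, and its ratio was 1.62 ± 1.11, with 3 of 6 MII oocytes above the highest GV oocyte. Without MII4 the ratio was 1.19. In the annotation 22.5% of the exon bases of Mlst8 overlap Bricd5 on the opposite strand. Bricd5 had no count in any oocyte, which allows at most 0.0683 CPM in GV and 0.311 CPM in MII; the sources used here do not say how reads in the overlap were assigned.

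The scaffold and the inhibitor of mTORC1 lay below and above the median gene, both by less than the spread between oocytes. Rptor (ENSMUSG00000025583), encoding raptor, was at 10.6 to 82.8 CPM in GV (median 37.2) and 4.95 to 21.7 CPM in MII (median 15.9). These ranges overlapped, since GV7 and GV9 (17.0 and 10.6 CPM) were as low as the MII oocytes. The ratio was −0.36 ± 1.13, −0.56 relative to GV1 to GV6 and 0.33 relative to GV7 to GV9. Akt1s1 (ENSMUSG00000011096) encodes PRAS40, which blocks substrate access to raptor until AKT phosphorylates it. It was at 8.21 to 99.3 CPM in GV (median 46.3) and 28.4 to 115 CPM in MII (median 53.7), a ratio of 1.35 ± 1.53, within the spread. MII4, MII5 and MII6 were at 115, 91.6 and 69.0 CPM and the other 3 MII oocytes at 28.4 to 38.3 CPM. Without MII5 and MII6 the ratio was 0.91. Within oocytes, counts of Rptor stayed below those of Rictor in all 15 (0.0560 to 0.606 times in GV, 0.0364 to 0.515 times in MII). Counts of Rptor plus Akt1s1 were 0.398 times those of Rictor plus Mapkap1 in GV and 0.566 times in MII, from summed counts. On the log2 scale this ratio differed by 0.51, less than the spread between oocytes (1.51). It leaves out the mTORC2 members Prr5 and Prr5l, so it is no balance of all mTORC1 and mTORC2 mRNAs.

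The TSC genes, which restrain mTORC1 through RHEB, differed by less than the spread between oocytes relative to the median gene. Tsc1 (ENSMUSG00000026812) was at 88.9 to 313 CPM in GV (median 171) and 18.2 to 135 CPM in MII (median 74.2), with 3 MII oocytes below the lowest GV oocyte. In GV1 to GV6 Tsc1 was at 101 to 313 CPM and in GV7 to GV9 at 88.9 to 120 CPM. Its ratio was −0.57 ± 1.01; it was −0.79 relative to the first set and 0.20 relative to the second. Tsc2 (ENSMUSG00000002496) was at 30.1 to 79.9 CPM in GV (median 46.0) and 3.64 to 50.2 CPM in MII (median 35.5). MII1 to MII4 (32.6 to 50.2 CPM) lay inside the GV range and MII5 and MII6 (3.64 and 6.81 CPM) below it. The ratio of Tsc2 was 0.13 ± 1.18 relative to the median gene, −0.85 in CPM and −0.46 against GV7 to GV9. Its annotated exons overlap those of Pkd1 on the opposite strand over 7.20% of their length; Pkd1 stood at 35.6 CPM (GV) and 12.8 CPM (MII). Counts of Tsc1 exceeded those of Tsc2 in all 15 oocytes, 1.49 to 7.64 times in GV and 1.36 to 4.70 times in MII. By file set the excess was 2.19 to 7.64 times in GV1 to GV6 and 1.49 to 1.97 times in GV7 to GV9.

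Counted together, 3 of 10 members (Prr5, Mlst8 and Akt1s1) were at least 2-fold higher in MII relative to the median gene, against 12.1% of the 10090 measured genes. A single member, Mtor, was at least 2-fold lower, against 15.5% of measured genes, and 6 lay within 2-fold, against 72.4%. Prr5 is counted among the 3 although the group was chosen for it. The median ratio was 0.31 over the 10 genes and 0.13 over the 9 without Prr5, beside 0 for the median gene by construction. In CPM 7 of 10 were lower in MII, as were 87.5% of measured genes. The CPM range of MII lay wholly below that of GV for 0 members and for 4.65% of measured genes. Only Prr5, Mlst8 and Mapkap1 had a ratio larger than the spread between oocytes, Mapkap1 narrowly (0.78 against 0.72). The share of all measured genes that did so was not computed, so this count is no result about the members. Against GV1 to GV6, 3 members were at least 2-fold higher (12.3% of genes) and 0 lower (16.6%). Against GV7 to GV9, 4 were higher (20.6%) and 1 was lower (20.7%). Between the sets themselves, Mtor was at least 2-fold higher (1.26; 18.1% of genes) and Prr5l at least 2-fold lower (20.2%) in GV7 to GV9. For Rptor, Rictor, Tsc1 and Tsc2 the 2 sets of GV files put the ratio on opposite sides of the median gene. How often this happened over all measured genes was not computed.

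**Figure D3:**
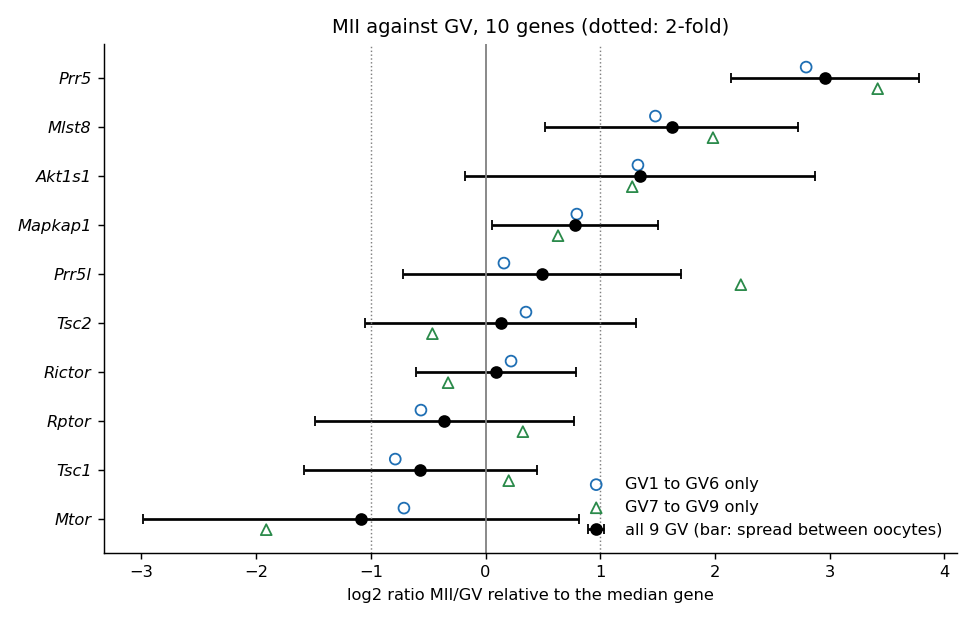
Log2 ratio MII/GV relative to the median gene (horizontal axis) for the 10 genes, as filled points with the spread between oocytes as bars; open circles use GV1 to GV6 alone and open triangles GV7 to GV9 alone. Prr5 stands at 2.96 with 2.80 and 3.42 for the sets, while Prr5l moves from 0.16 to 2.23 and Tsc1 from −0.79 to 0.20.

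MII5 and MII6 were the lowest MII oocytes in CPM for Mtor (10.1 kb of annotated exon), Rictor (16.9 kb), Tsc1 (11.8 kb) and Tsc2 (9.62 kb), and also for the shorter Mapkap1 (4.06 kb). For Rptor (13.5 kb) the lowest was MII1. The unnamed feature took 52.6% of the counts of MII5 and 61.2% of those of MII6. The median gene was at 9.10 CPM in MII5 and 9.37 CPM in MII6, against 14.0 to 19.1 CPM in MII1 to MII4. In most libraries protein-coding genes with over 8 kb of exon had a higher median level than those under 2 kb. The gap on the log2 scale was 1.38 to 1.85 in MII1 to MII4, −0.42 in MII5 and 0.06 in MII6, and in GV it ran from 0.10 (GV4) to 2.13 (GV2). The part of this gap, or of the unnamed feature, in the low levels of these genes was not tested. Nor was the part of this gap in the share of Prr5 within an oocyte. Across stages the median ratio of measured protein-coding genes varied little with length, from −0.07 for those under 2 kb (the class of Prr5) and 0.08 at 2 to 4 kb to −0.22 above 12 kb. Relative to the median gene of its own length class Prr5 stood at 3.02, Mlst8 at 1.59, Akt1s1 at 1.27 and Mtor at −1.01. The share of genes at least 2-fold higher was however larger among short genes, 20.4% under 2 kb and 15.3% at 2 to 4 kb against 3.63% above 12 kb.

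Per kb of annotated exon, Prr5 had the highest summed level of the 10 mRNAs in both stages, 40.3 CPM per kb in GV and 158 CPM per kb in MII. By oocyte it was highest in all 6 MII and in 7 of 9 GV oocytes. Mapkap1 was above it in GV2 (20.6 against 19.6 CPM per kb) and Mtor in GV9 (23.9 against 18.1 CPM per kb). In GV it was followed by Mapkap1, Akt1s1, Tsc1, Mtor and Prr5l, at 18.0 to 15.2 CPM per kb, then Rictor (9.22), Tsc2 (4.88), Rptor (2.80) and Mlst8 (2.10 CPM per kb). The gap between neighbours exceeded the combined SD of their oocytes only between Prr5 and Mapkap1, Rictor and Tsc2, and Tsc2 and Rptor. In MII Akt1s1 followed Prr5 with 22.4 CPM per kb, then Mapkap1, Prr5l, Tsc1, Rictor, Mtor, Mlst8 and Tsc2, and Rptor was last with 1.10 CPM per kb. Of these neighbours only Prr5 and Akt1s1 were further apart than the combined SD. Prr5 is short in this annotation, of an older build than the one the authors aligned to, so its level per kb would be lower if longer exons were counted.

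Other parts of the pathway were taken from 9 lists of 90 genes, 89 of which had an ID. Of the 72 measured, 11 were at least 2-fold higher and 12 at least 2-fold lower relative to the median gene, close to the shares of 12.1% and 15.5% over all measured genes. Their median ratio was 0.13, and none exceeded Prr5.

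The list of other mTOR partners and assembly factors had the highest median ratio of the 9 lists. Of 7 measured, 5 were at least 2-fold higher (Deptor, Tti1, Fkbp1a, Fkbp8 and Ruvbl2) and 1 at least 2-fold lower (Tti2), with a median ratio of 1.10; over all measured genes 12.1% were higher and 15.5% lower by this measure. Deptor and Tti1 lay at the 2-fold line, Deptor at 0.89 against GV1 to GV6 and Tti1 at 0.98 against GV7 to GV9. Ruvbl2, an AAA+ ATPase that acts with the TTI1-TTI2-TELO2 chaperone in assembling mTOR and related kinases, was at 114 to 430 CPM in GV (median 298) and 799 to 1461 CPM in MII (median 881). All 6 MII oocytes were above all 9 GV oocytes, and the ratio was 2.69, larger than the spread. It was 2.47 relative to GV1 to GV6 and 3.48 relative to GV7 to GV9. Its partner Ruvbl1 was under the limit for a measured gene, with 136 counts in GV and 21 in MII. Fkbp1a, which encodes the rapamycin-binding protein FKBP12, was at 46.7 and 96.0 CPM (2.02 ± 1.28), and Tti1 at 125 and 136 CPM (1.10 ± 0.82). Deptor, an inhibitor of both complexes, had a ratio of 1.01 ± 1.07. Tti2 had 234 counts in GV and 11 in MII, 4.67-fold higher in GV in CPM (95% counting interval 2.56 to 9.48), and its ratio of −1.18 ± 1.32 was 0.37 against GV7 to GV9.

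Genes that carry the amino acid signal lay on both sides of the median gene. Rag GTPases and Ragulator, the lysosomal platform of mTORC1, had a median of −0.39 over 10 measured genes, and 3 were at least 2-fold lower (15.5% of all measured genes) against 0 higher (12.1%). Rragc, the most abundant, was at 287 and 108 CPM (−0.43 ± 0.50), Lamtor5 had the lowest ratio (−1.59 ± 1.81) and Lamtor1 the highest (0.87 ± 1.06). In the same list Fnip1, which encodes a folliculin partner, was at 19.6 to 39.2 CPM in GV (median 27.7) and 0 to 9.86 CPM in MII (median 5.58). Its highest MII oocyte was below its lowest GV oocyte, with a ratio of −1.50 ± 0.99. GATOR subunits, which control the Rag GTPases, had a median of 0.16 over 8 genes, with 3 lower and 0 higher by at least 2-fold; Sec13 was at 0.18 ± 1.12, Mios at −1.42 ± 0.97 and Wdr24 at 0.67 ± 2.21. The KICSTOR and sensor list had a median of 0.26 over 7 genes, with 1 at least 2-fold lower and 1 higher (Castor1, an arginine sensor, 1.39 ± 1.17), and Castor2 was at −0.71 ± 1.58. Rheb was at 9.95 and 9.24 CPM (0.88 ± 1.49).

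Growth factor and energy inputs differed in how widely they ranged. All 12 measured genes of the insulin and PI3K list lay within 2-fold (median 0.06), as did 72.4% of all measured genes. Kit, the receptor of the follicle's kit ligand and the most abundant of them, was at 0.09 ± 0.98 (0.57 and −0.87 against the 2 sets), and Insr, the insulin receptor, at 0.44 ± 1.32. In the AMPK and stress list, 3 of 10 were at least 2-fold higher and 1 lower (12.1% and 15.5% of all measured genes), and the median was 0.22. Prkab1, the most abundant, was at −0.26 ± 0.87, Prkab2 at −1.12 ± 0.91 and Prkag1 at 1.85 ± 1.52. Ddit4, which encodes the stress-induced mTORC1 inhibitor REDD1, was at 17.6 to 55.5 CPM in GV (median 33.4) and 41.3 to 85.5 CPM in MII (median 66.0). The CPM ranges overlapped, but relative to the median gene every MII oocyte was above every GV oocyte (1.77 ± 0.64).

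Targets of the kinase included an opposite pair. Eif4e, the cap-binding protein whose use mTORC1 frees by phosphorylating its binding proteins, was at 191 to 721 CPM in GV (median 338) and 361 to 749 CPM in MII (median 522), a ratio of 1.44 ± 0.57. Rps6kb1, encoding the mTORC1 substrate S6 kinase 1, was at 22.6 to 97.3 CPM in GV (median 47.8) and 1.82 to 17.1 CPM in MII (median 13.4). No MII oocyte reached the lowest GV oocyte, and the ratio was −1.30 ± 0.82. The 12 measured mTORC1 targets had a median of −0.15, with 2 higher and 2 lower by at least 2-fold. Over all measured genes 12.1% were higher and 15.5% lower. Of 5 measured mTORC2 targets 4 lay within 2-fold, as did 72.4% of all measured genes. Among the 4 were Foxo3, the most abundant (0.04 ± 0.88), and Sgk1 (0.57 ± 1.66). Prkcb had 341 counts in GV and 2 in MII, 37.4-fold higher in GV in CPM (95% counting interval 10.3 to 310.1), at 0 to 27.0 CPM across GV oocytes (median 0.814), and its ratio against GV7 to GV9 was −0.24.

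**Figure D4:**
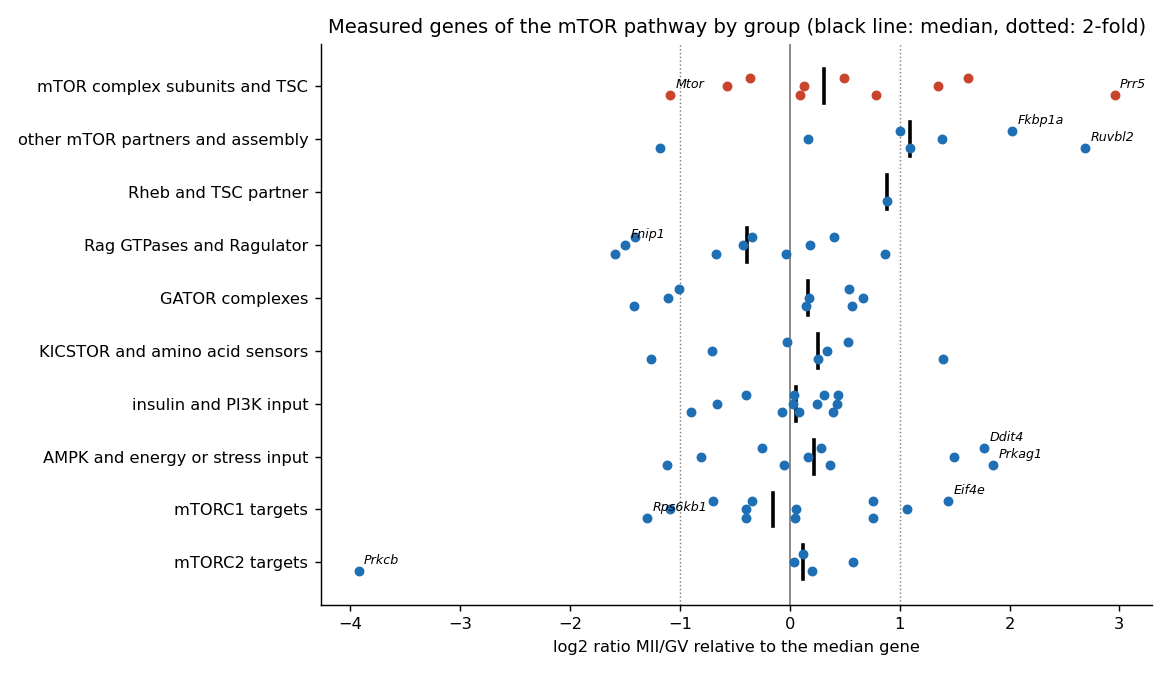
Log2 ratio MII/GV relative to the median gene for each measured gene of the 10 subunits (red) and 9 further lists of the pathway (blue), 1 point per gene, with the median of a list as a black line and 2-fold as dotted lines. Prr5 (2.96) and Ruvbl2 (2.69) lie furthest to the right, and Prkcb (−3.92, with 2 counts in MII) furthest to the left.

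Ranges relative to the median gene did not overlap between stages for 2 of the 72 genes above (Ruvbl2 and Ddit4) and 2 below (Fnip1 and Rps6kb1). Over all measured genes the shares were 1.61% above and 0.684% below. Fnip1, Ddit4, Deptor, Tti1, Fkbp1a, Fkbp8 and Ruvbl1 were singled out after their values were seen.

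Among 9305 other measured protein-coding genes with at least 100 counts, 5 had levels over the 15 oocytes most like those of Prr5. Ruvbl2 came first with a Pearson r of 0.97, followed by Abi1 (0.96), an actin regulator of the WAVE complex, Cltb (0.95), a clathrin light chain, Os9 (0.94), a lectin of endoplasmic reticulum quality control, and Blcap (0.94). The stages form separate clusters in these levels, and all levels of an oocyte share its library, depth and median gene. Within the 9 GV oocytes r was 0.83 for Ruvbl2, 0.83 for Abi1, 0.84 for Cltb, 0.83 for Os9 and 0.57 for Blcap. These oocytes also took part in the choice of the 5 genes, and they come from 2 file sets. The relative level of Prr5 was 0.55 to 2.01 in GV1 to GV6 and 0.39 to 1.36 in GV7 to GV9. That of Ruvbl2 was 2.12 to 3.98 and 2.43 to 2.69. The part of the file set in r was not tested. Within the 6 MII oocytes, which also took part in the choice, r was 0.82 to 0.94. The relative level of Prr5 was high in MII4, MII5 and MII6 and low in MII1 to MII3. The median gene was lowest in MII5 and MII6 (9.10 and 9.37 CPM), and in CPM Prr5 was lower in MII5 (289) than in MII3 (302). Among the 5 genes the stage ratios were largest for Ruvbl2 (2.69) and Cltb (2.68), with Abi1 at 1.96. In all, 193 genes had an r above 0.8 with Prr5.

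**Figure D5:**
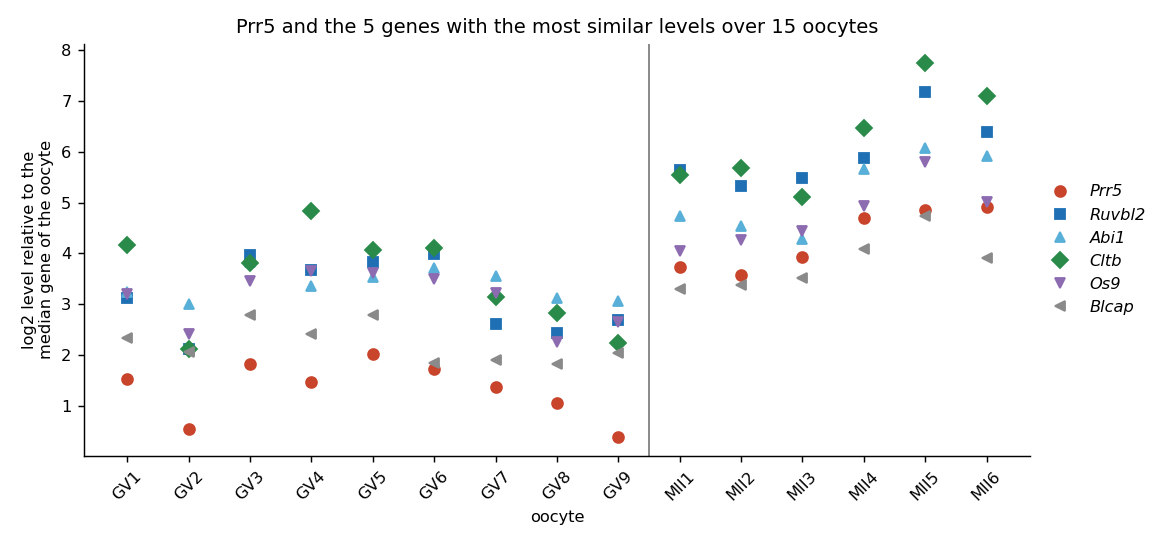
Log2 level relative to the median gene of the oocyte, for Prr5 and the 5 genes with the highest correlation with it, in each of the 15 oocytes (GV left and MII right of the vertical line). Prr5 lies between 0.39 and 2.01 in GV and between 3.58 and 4.90 in MII.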

How the data were processed

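Counts per Ensembl gene ID were deposited by the authors as 1 file per oocyte, unnormalised, per the file headers and the values. Per the submitters' processing notes, reads were handled with STAR 2.7.10a and cutadapt 4.0, and GRCm39 is the build named. Not given in the sources used here are the counter, its annotation, strand and treatment of shared reads. A gene not listed was taken as 0. Symbols (28402 of 28785 IDs, 98.7%), exon lengths, exon overlaps, coding positions and transcripts came from GENCODE M21 of GRCm38.

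Counts were summed per stage, 0.5 was added to each sum, and log2 ratios were centred on the median measured gene (at least 5 CPM in the higher stage). Levels per oocyte were log2(CPM + 1) minus that of its median gene. Intervals are exact Poisson or binomial at 95%, reach at most 10.2% in GV and 18.1% in MII for members, and cover counting error only. No 2 of the 51 same-stage pairs agreed within sampling noise (chi-square per degree of freedom at least 7.26). No statistical test between stages was made. The script for the ratios was run on simulated counts drawn from the GV means with Poisson noise only. These lacked the spread between oocytes and the large share of the unnamed feature in MII. The simulation therefore cannot speak for the centring under those conditions. Members and lists were chosen with earlier results of these data known. Beside the 10 members, the text names in each list the most abundant gene, the gene of lowest and that of highest ratio, 5 genes most like Prr5 and overlapping genes. Values of some genes that this rule names are not reported here. Tools were Python 3.11.15, scipy 1.17.1, and, for scaling factors, edgeR 4.0.16 and DESeq2 1.42.0.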

Additional observations from a re-analysis of the deposited data

Results flagged for a closer look

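In 3 of 20 groups (10 genes in 2 stages) a single oocyte lay far from the others for its log2 level relative to the median gene. Its gap to the next oocyte was 0.54 to 0.69 of the range of the group. By chance about 1 in 20 groups would be flagged. The groups share the same oocytes and libraries, so that rate is a rough guide and the comparison is no test. Rptor was at −1.62 in MII1 (4 counts, 4.95 CPM), where the highest MII oocyte was at 0.73. Mapkap1 was at 1.13 in MII6 (51 counts, 21.7 CPM), with the highest at 2.42. Akt1s1 was at −1.52 in GV2 (35 counts, 8.21 CPM), with the highest GV oocyte at 1.73.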

How the results depend on the processing

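No paired analysis was possible because the replicate numbers only name oocytes and no result comes from a test. In every alternative Prr5, Mlst8 and Akt1s1 were above and Mtor below 0 (Prr5 1.97 to 3.42). With CPM and no centring Prr5 was at 1.97, the median of the members was −0.67, and 1 member was at least 2-fold higher and 3 were at least 2-fold lower; this setting differs by the median gene's own shift. The count of members at least 2-fold lower, which is Mtor near the 2-fold line, was 0 with the median of CPM over oocytes, with genes of at least 1 CPM, against GV1 to GV6 alone, and without MII5 and MII6. With 1 oocyte left out it was 0 to 1, and 0 without GV3, GV7, GV8, MII5 or MII6; the count of higher members was then 3 and the median 0.25 to 0.40. The count of higher members was 2 with the median of CPM over oocytes and without MII5 and MII6, where Akt1s1 stood at 0.98 and 0.91, and 4 against GV7 to GV9 alone. With 1 oocyte left out the ratio of Prr5 was 2.79 to 3.14, and Prr5 against the other 9 was 2.68 to 3.05. With genes of at least 20 CPM Mlst8 was not measured, and the count of higher members was 2. Centring within classes of exon length was added after the data were seen. Low counts limit Mlst8 and Rptor in MII most.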
